A study of Saccharomyces cerevisiae with 6 samples.

Results

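Budding yeast builds methionine and cysteine from inorganic sulfate, and 32 genes of that route, of the methyl cycle it feeds and of their regulators were followed in cells with and without the [GAR+] prion. The genes were taken by their symbols in the platform annotation from a list chosen with earlier results of these data known. All 32 were represented on the array, out of 5656 genes. The prion is a protein-based state, inherited without a change in DNA, in which cells can use other carbon sources although a glucose mimic is present. The groups were 3 [GAR+] and 3 [gar-] cultures of W303, a common laboratory strain of Saccharomyces cerevisiae, all in complete synthetic medium with 2% glucose and taken in late exponential phase at an OD600 of about 0.8. Each culture was grown separately and gave 1 Affymetrix array. Whether the [GAR+] cultures go back to 1 or several isolates is not given in the sources used here.

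Sulfate enters through permeases, is activated with ATP, and is reduced to sulfide by a chain of enzymes that consumes much reducing power. Sulfide joins a carbon skeleton made from homoserine to give homocysteine, which is either methylated to methionine or turned into cysteine by transsulfuration. Methionine becomes S-adenosylmethionine, the methyl donor of most methylation reactions, and the spent molecule, S-adenosylhomocysteine, is split back to homocysteine. The activator Met4, brought to DNA by Cbf1, Met28, Met31 and Met32, switches on many of these genes when sulfur amino acids are scarce, and the ubiquitin ligase subunit Met30 holds Met4 in check when they are ample.

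Levels below are MAS5 signals brought to 1 distribution by quantile normalization and given in the order of cultures 1, 2 and 3. Signed values are log2 differences of [GAR+] minus [gar-] on the log2(signal + 16) scale, on which dim genes appear less changed than they are. Signals of different genes come from different probes and are not compared. The deposited signals differed in scale, with trimmed means of 192 to 500. The first principal component held 39.7% of the variance. On it the 2 arrays numbered 2 lay apart from the rest, with scores of 12.4 in [gar-] and 22.0 in [GAR+]. The other 4 scored -10.1 to -7.96. On the second component, with 25.8% of the variance, the 2 arrays numbered 2 lay at opposite ends. They scored -19.8 in [gar-] and 13.5 in [GAR+], against -1.64 to 4.75 for the rest. On the same 2 arrays the ratio of the 3′ to the 5′ control probe set of the actin gene, a measure of RNA integrity and labelling, was lowest, at 1.17 and 1.04 against 1.29 to 1.64. The same ratio for SPT15 did not set these 2 arrays apart in 1 direction, since it was lowest in [gar-] culture 2, at 1.85, and highest in [GAR+] culture 2, at 3.41, and the part of either in the results was not tested. HXT3, a glucose transporter gene and the 1 transcript that passed between the groups, read 4404, 4347 and 3559 in [gar-] and 58.7, 75.4 and 42.8 in [GAR+]. In such bulk RNA, fewer cells with a transcript and less of it per cell cannot be told apart.

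The first question was which of these transcripts differed with the prion. None of the 32 genes passed in limma over all 6504 tested probe sets at an adjusted p under 0.05, and the smallest adjusted p among them was 1.00. Over the whole array only HXT3 passed, 0.0154% of the probe sets tested. The members that lay farthest from 0 were MET6 at 0.86, MET3 at -0.58, SAM2 at 0.58, MET10 at -0.57, SUL2 at -0.55, SAH1 at 0.46 and STR2 at -0.40, the 7 that differed by at least 0.4. The 4 negative ones belong to sulfate uptake (SUL2), sulfate reduction (MET3 and MET10) and transsulfuration (STR2), and the 3 positive ones to methionine synthesis (MET6) and the S-adenosylmethionine cycle (SAM2 and SAH1). [GAR+] values lay wholly outside the [gar-] values for 10 of the 32 genes (31.3%), against 8.98% of all genes, and 6 of the 10 were lower and 4 higher in [GAR+], against 4.56% and 4.42% of all genes. Members that vary together across cultures do not count as separate observations, and this share was not tested. The members were also chosen with earlier results of these data known. Neither this share nor those below are thus independent evidence.

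At an unadjusted p under 0.05, limma found 5 members (15.6%, against 2.78% of all genes). These were SUL2, MET10 and STR2, lower in [GAR+] (1.54% of all genes), and SAM2 and SAH1, higher (1.24%). With the culture number as a block the same threshold gave 9 members (28.1%, against 6.61% of all genes), 6 lower (3.62%) and 3 higher (2.99%), and again 0 passed after adjustment, the smallest adjusted p being 0.735. Over the 32 genes the median difference was -0.06, against 0.008 over all genes, and 19 of them (59.4%) lay below 0, against 48.0% of all genes. For 28 of the 32 the 95% confidence interval lay within 2-fold in either direction (87.5%, against 96.0% of all genes). The intervals of MET3, MET10, MET6 and SAM2 reached further.

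**Figure D1:**
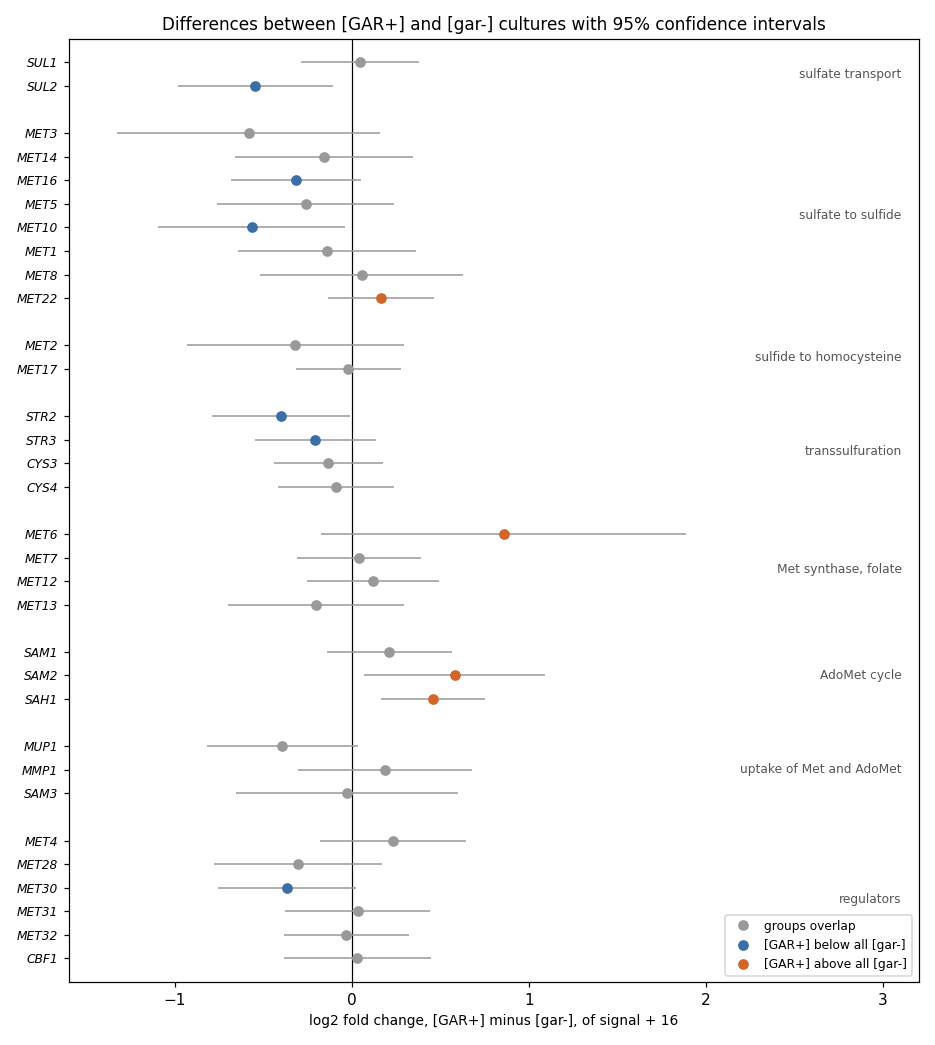
Log2 fold changes of [GAR+] over [gar-] (horizontal axis, signal + 16) for the 32 genes in order of pathway step, with 95% confidence intervals from limma. Coloured points mark the 10 genes whose 3 [GAR+] values lay all below (6) or all above (4) the 3 [gar-] values, and the interval of MET6 is the widest, from -0.17 to 1.89.

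Sulfate enters the cell through permeases encoded by SUL1 and SUL2. SUL2 read 46.0, 79.2 and 48.8 in [gar-] and 28.8, 39.0 and 34.0 in [GAR+]. These signals were dim, and those in [GAR+] were not far above the non-yeast controls, whose highest on each array were 12.7 to 27.6. The highest [GAR+] value was below the lowest [gar-] value, and [gar-] culture 2 was the highest of all. The means were 58.0 ± 18.4 and 33.9 ± 5.08 (SD, n = 3), which on the log2 scale is -0.55 with a standard error of 0.19. Its unadjusted p from limma was 0.0199, and 0.00713 with the block. Without [gar-] culture 2 the difference of SUL2 was -0.35 (limma, unadjusted p = 0.0660). SUL1 read 11.2 to 21.0 and did not exceed the brightest non-yeast control on 4 of the 6 arrays, so no level can be given for it.

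Of the 8 genes that turn sulfate into sulfide, 6 lay below 0 and 2 above, with a median of -0.21. MET3 encodes ATP sulfurylase, which activates sulfate in the first step. It read 157, 438 and 369.6 in [gar-] and 177, 166 and 242 in [GAR+]. The groups overlapped, since [gar-] culture 1 had the lowest value of all while [gar-] cultures 2 and 3 had the highest values. At culture numbers 1, 2 and 3 the [GAR+] culture differed from the [gar-] culture by 0.15, -1.32 and -0.58, so the sign was not shared by all numbers. The difference of -0.58 had a standard error of 0.33 and an unadjusted limma p of 0.111, and without both arrays numbered 2 it was -0.21. MET14, which encodes the kinase of the second activation step, read 600.4 to 1063 and had the same profile as MET3 in [gar-], low in culture 1 and high in cultures 2 and 3. Its difference was -0.16.

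MET16 encodes the reductase that turns the activated sulfate into sulfite. It read 308, 294 and 356 in [gar-] and 283, 233 and 243 in [GAR+], so every [GAR+] culture was below every [gar-] culture. The difference of -0.32 had a standard error of 0.16 and did not pass (limma, unadjusted p = 0.0819). Unlike SUL2 and MET10, MET16 had its highest value in [gar-] culture 3, and its difference was -0.32 at number 2 and -0.52 at number 3.

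Sulfite reductase, the enzyme that makes sulfide, has 2 kinds of subunit, encoded by MET10 and MET5, and carries siroheme, which is made with the enzymes of MET1 and MET8. MET10 read 123, 207 and 139 in [gar-] and 121, 72.2 and 106 in [GAR+]. The groups did not overlap, but [gar-] culture 1 and [GAR+] culture 1 were nearly equal, and the within-number differences were -0.02, -1.34 and -0.34. The difference of MET10, -0.57 with a standard error of 0.23 (limma, unadjusted p = 0.0372), thus rests mostly on the cultures numbered 2, and it was -0.19 without both of them. MET5 read 469, 739 and 624 in [gar-] and 411, 654 and 459.6 in [GAR+], and its groups overlapped. In both groups number 2 was highest, although MET5 did not pass the test for culture number (limma, adjusted p = 0.164), and [GAR+] was lower at each number, with differences of -0.18, -0.17 and -0.43. The difference of MET5 was -0.26, with a standard error of 0.22 without the block and 0.13 with it. MET1 read 196 to 332 and MET8 80.2 to 167, with differences of -0.14 and 0.05, and both were lowest in [GAR+] culture 1 and highest in [GAR+] culture 2.

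MET22 encodes a phosphatase that clears the nucleotide left over from sulfate reduction. It read 913, 889 and 809 in [gar-] and 975, 953 and 1002 in [GAR+], the reverse order of MET16, with no overlap. The difference was small, 0.16 with a standard error of 0.13, and did not pass.

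**Figure D2:**
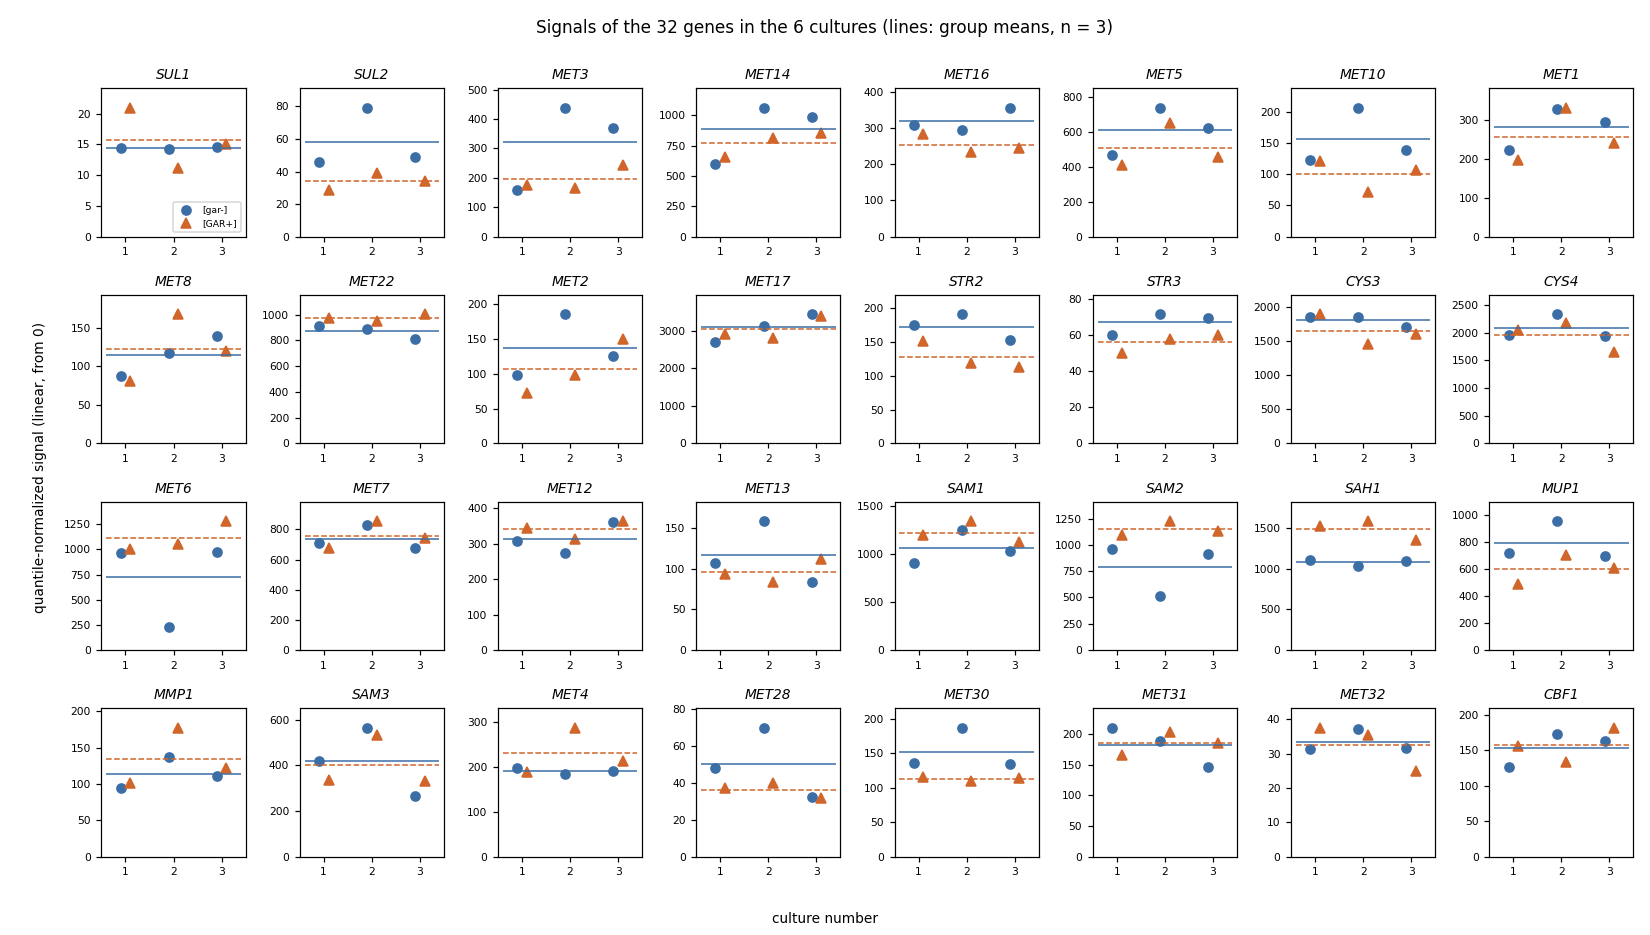
Quantile-normalized signal (vertical axis, linear from 0, its own scale in each panel) of the 32 genes by culture number, with circles for [gar-] and triangles for [GAR+] and lines at the group means (n = 3). MET6 and SAM2 have 1 low circle each, at 229 and 509 in [gar-] culture 2, whereas the 3 triangles of SAH1 stand above its 3 circles at every number.

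Homocysteine is made from sulfide by the enzyme of MET17, with a carbon skeleton acetylated by the enzyme of MET2. MET17 read 2711 to 3438, and its difference of -0.02 with a standard error of 0.13 left a confidence interval of -0.32 to 0.28. MET2 read 72.1 to 185, with a difference of -0.32 and a standard error of 0.27. It was highest in [gar-] culture 2, while at number 3 the [GAR+] culture was higher by 0.23.

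The 4 transsulfuration genes all lay below 0, with a median of -0.17, and none passed. STR2 encodes the enzyme that starts the route from cysteine to homocysteine. It read 174, 191 and 153 in [gar-] and 151, 118 and 113 in [GAR+], without overlap. The difference was -0.40 with a standard error of 0.17, and the unadjusted limma p was 0.0459. STR3, which encodes the next enzyme of that route, read 60.0, 71.3 and 69.3 in [gar-] and 49.8, 57.7 and 59.9 in [GAR+]. Its groups did not overlap either, although [gar-] culture 1 and [GAR+] culture 3 nearly touched, and its difference was -0.21. CYS4 and CYS3 encode the enzymes of the opposite route, from homocysteine to cysteine. They read 1649 to 2331 and 1448 to 1887, overlapped between groups and gave -0.09 and -0.13.

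MET6 encodes the methionine synthase, which moves a methyl group from folate onto homocysteine. It read 962, 229 and 973 in [gar-] and 999, 1054 and 1282 in [GAR+]. All [GAR+] values were above all [gar-] values, but 5 of the 6 arrays lay between 962 and 1282 and [gar-] culture 2 stood alone at 229. The means were 721 ± 426 and 1112 ± 149.6 (SD, n = 3). The difference of 0.86 had a standard error of 0.46 and an unadjusted limma p of 0.0927. Without [gar-] culture 2 the difference of MET6 was 0.19 (limma, unadjusted p = 0.251), so this 1 array set most of its size.

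The folate genes beside MET6 gave small values. MET12 and MET13 encode methylenetetrahydrofolate reductases, which make the folate form that MET6's enzyme needs. MET12 read 306, 273 and 360.4 in [gar-] and 343, 314 and 363 in [GAR+], which was higher at each number, with differences of 0.15, 0.19 and 0.01, while the groups overlapped. MET13 read 83.4 to 158 and gave -0.20, with its highest value in [gar-] culture 2. MET7, which encodes the enzyme that adds the glutamate tail of folates, read 675 to 856 and gave 0.04. In [gar-] culture 2, where MET6 was lowest, MET12 was lowest too, while MET7 and MET13 were not.

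All 3 genes of the S-adenosylmethionine cycle lay above 0, with a median of 0.46, and in each the [GAR+] culture was higher at every number. SAH1 encodes S-adenosylhomocysteine hydrolase, which removes the product that inhibits methyltransferases. It read 1105, 1036 and 1090.2 in [gar-] and 1524, 1588 and 1354 in [GAR+]. The 3 [gar-] cultures lay close together, and every [GAR+] culture was above all of them. The means were 1077 ± 36.3 and 1488 ± 121 (SD, n = 3), which on the log2(signal + 16) scale is 1.37-fold (95% confidence interval 1.12 to 1.68). The unadjusted limma p of SAH1 was 0.00611, the smallest among the 32 genes, and its adjusted p over all probe sets was 1.00. At numbers 1, 2 and 3 the differences were 0.46, 0.61 and 0.31. Unlike that of MET6, the value of SAH1 did not rest on 1 array, ranging from 0.41 to 0.53 with 1 array left out in turn, and it was 0.37 without both arrays numbered 2.

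SAM1 and SAM2 encode the S-adenosylmethionine synthetases, a pair of closely similar isoenzymes. SAM2 read 959.9, 509 and 913 in [gar-] and 1096, 1227 and 1136 in [GAR+]. The [GAR+] values lay above all [gar-] values, and [gar-] culture 2 was far below the others. The difference of 0.58 had a standard error of 0.23 (limma, unadjusted p = 0.0303). Without [gar-] culture 2 it was 0.29 (limma, unadjusted p = 0.0605). SAM1 read 907, 1245 and 1028 in [gar-] and 1202, 1343 and 1123 in [GAR+], with overlap and a difference of 0.21. In [gar-] culture 2 SAM1 was the highest of its group while SAM2 was the lowest. A further probe set that the annotation gives to both genes read 4302, 5278 and 4679 in [gar-] and 4543, 5639.9 and 5241 in [GAR+]. Its mean difference, left out of the tests because it names both genes, was 0.11. How much of each signal comes from the other transcript is uncertain.

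Of the permease genes for methionine and its derivatives, MUP1, which encodes the high-affinity methionine permease, read 719.7, 954 and 696 in [gar-] and 485, 700.1 and 608 in [GAR+]. The groups overlapped by a narrow margin, [GAR+] culture 2 lying just above [gar-] culture 3, and the [GAR+] culture was lower at each number, with differences of -0.55, -0.44 and -0.19. The difference of MUP1 was -0.39, with an unadjusted limma p of 0.0662 and of 0.0158 with the block. It was -0.25 without [gar-] culture 2 (limma, unadjusted p = 0.207) and -0.26 without [GAR+] culture 1 (limma, unadjusted p = 0.248). MMP1 encodes the permease for S-methylmethionine. It read 93.8, 136 and 111 in [gar-] and 102, 177 and 122 in [GAR+], higher at each number but with overlapping groups and a difference of 0.19. SAM3, the gene of the S-adenosylmethionine permease, had 5 probe sets. The brightest read 268 to 566 and gave -0.03, and the other four gave -0.20, 0.09, -0.23 and -0.08, so they did not share a sign. The probe set at -0.20 read 1.22 to 15.4, within the range of the non-yeast controls.

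Among the regulators, MET30 was the only gene whose groups did not overlap. It encodes the F-box subunit that marks Met4 with ubiquitin, and its own transcription is known to depend on Met4. It read 136, 187 and 134 in [gar-] and 116, 110.3 and 114 in [GAR+]. The [GAR+] values lay within a narrow band below all [gar-] values. The difference was -0.37 with a standard error of 0.17 (limma, unadjusted p = 0.0625), and it was -0.23 without [gar-] culture 2, the highest of the 6. MET28, which encodes a cofactor of Met4, read 47.7, 69.7 and 32.3 in [gar-] and 37.0, 39.9 and 31.4 in [GAR+], again highest in [gar-] culture 2 and lower in [GAR+] at each number, with differences of -0.27, -0.62 and -0.03.

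The genes of Met4 itself and of Cbf1, Met31 and Met32 had overlapping groups and mixed signs across the culture numbers. MET4 read 184 to 288, the highest value being that of [GAR+] culture 2, and gave 0.23. MET31 and MET32, which encode related zinc-finger proteins, read 146 to 210.5 and 25.0 to 37.5 and gave 0.03 and -0.03. The signals of MET32 were near the non-yeast controls, whose highest on each array were 12.7 to 27.6. CBF1, whose protein also binds centromeres, read 126 to 182 and gave 0.03, with a confidence interval of -0.39 to 0.44. The median of the 6 regulators was -0.0009.

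Within culture numbers, 16 of the 32 genes had 1 sign at all 3 numbers, 9 lower and 7 higher in [GAR+]. Among all genes the share was 29.5%, with 14.1% lower and 15.4% higher. The 9 were SUL2, MET16, MET5, MET10, STR2, STR3, MUP1, MET28 and MET30, and the 7 were MET22, MET6, MET12, SAM1, SAM2, SAH1 and MMP1. The differences were widest at number 2, from -1.34 for MET10 and -1.32 for MET3 to 1.24 for SAM2 and 2.13 for MET6. Over all tested probe sets the 2 arrays numbered 2 also lay at opposite ends of the second principal component. The spread of all genes at number 2 was not measured. Of the steps, the median at number 2 was -0.25 for sulfate to sulfide and 0.61 for the S-adenosylmethionine cycle, against -0.06 and 0.40 at number 1 and -0.31 and 0.31 at number 3.

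**Figure D3:**
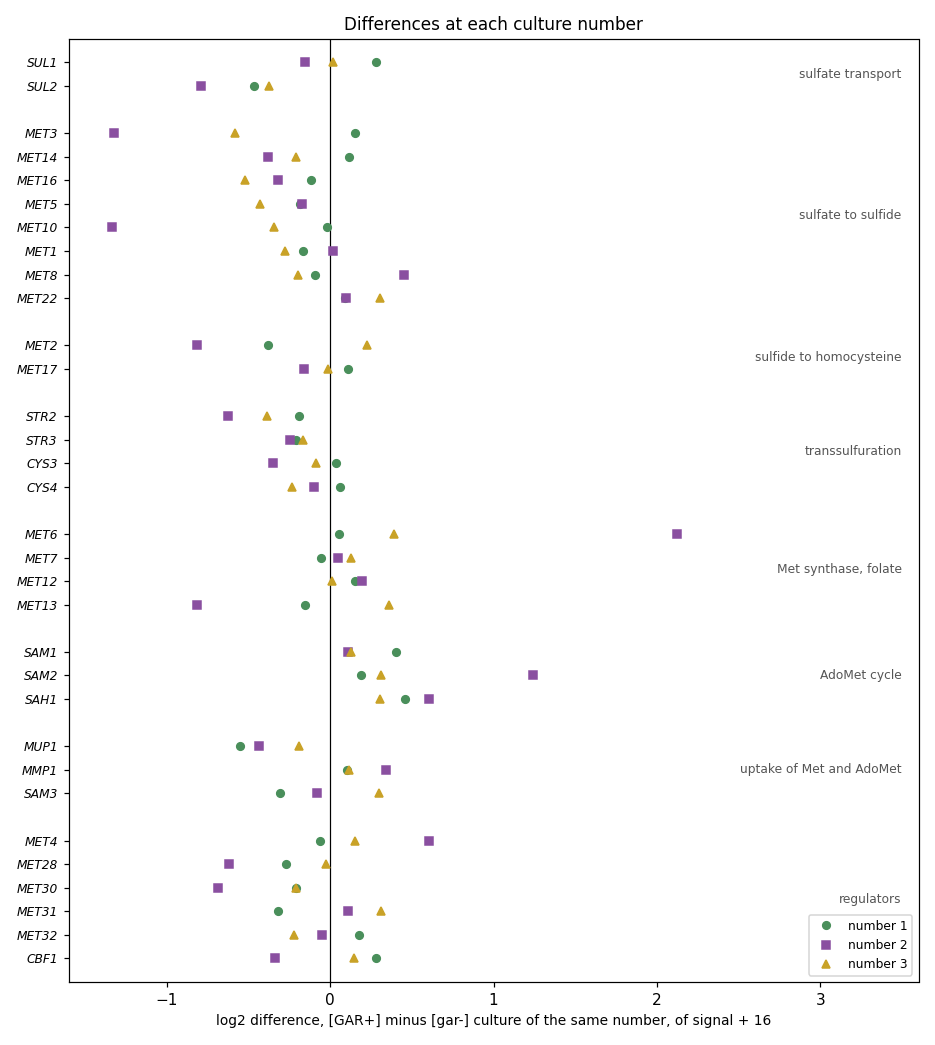
Log2 difference of the [GAR+] from the [gar-] culture of the same number (horizontal axis, signal + 16) for the 32 genes, with 1 symbol per culture number. The squares of number 2 lie farthest out, at 2.13 for MET6 and -1.34 for MET10, while the 3 symbols of SAH1 lie between 0.31 and 0.61.

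[gar-] culture 2 held the highest signal of the 6 for 14 of the 32 genes (43.8%), against 22.0% of all genes. It was the highest array for SUL2, MET3, MET14, MET5, MET10, MET2, STR2, STR3, CYS4, MET13, MUP1, SAM3, MET28 and MET30. The same array was the lowest for MET6, MET12, SAM2, SAH1 and MET4 (15.6%, against 21.1% of all genes, so no more often than over all genes). Without both arrays numbered 2, 8 members lay wholly below and 6 wholly above the [gar-] values, which for 2 against 2 cultures held for 15.5% and 16.2% of all genes. The median over the members was then -0.02, and that of the S-adenosylmethionine cycle 0.26.

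Whether the levels followed the culture number in both groups was tested with limma's F test in a model with group and number. None of the 32 genes passed over all probe sets, against 42 probe sets (0.646%). With the brightest probe set of each gene, the smallest adjusted p among the members was 0.136, for SAM3. A dimmer probe set of SAM3, at 153 to 383, had an adjusted p of 0.0668 in the same limma test. At an unadjusted p under 0.05 there were 6, MET14, MET5, MET1, MET8, MMP1 and SAM3, which is 18.8% against 16.4% of all genes and thus near the background. With 1 array numbered 2 left out, the other one alone stands for number 2, and more members passed. There were 5 without [gar-] culture 2 and 6 without [GAR+] culture 2, while 688 and 637 probe sets passed in the whole table. Without both, 1 member passed, MET3 (limma, adjusted p = 0.0498), which in both groups was lower in culture 1 than in culture 3.

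Beyond these members, 40 genes of sulfur and one-carbon metabolism were listed in 7 groups. None of the 40 passed between [GAR+] and [gar-] in limma, 17 lay below 0 (42.5%, against 48.0% of all genes), the median was 0.02, and groups did not overlap for 2, JLP1 and GNP1 (5%, against 8.98% of all genes). GNP1, which encodes a broad amino acid permease that also carries methionine, read 499, 304 and 506 in [gar-] and 589, 682 and 611 in [GAR+]. It lay wholly above in [GAR+], with a difference of 0.54 (limma, unadjusted p = 0.028), and [gar-] culture 2 was its lowest array, as for MET6 and SAM2. Without that array the difference of GNP1 was 0.31 (limma, unadjusted p = 0.0746), and without both arrays numbered 2 it was 0.25. JLP1, which encodes an enzyme that frees sulfite from sulfonates, read 27.7, 30.3 and 26.3 and 25.0, 18.2 and 13.6 and lay wholly below in [GAR+], at signals near the non-yeast controls, whose highest on each array were 12.7 to 27.6. Its difference was -0.35.

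The largest differences in the other groups were smaller. They were -0.18 for HOM3 and 0.09 for HOM2 in homoserine supply, and -0.16 for UTR4 and 0.16 for MHT1 in methionine salvage. Among the one-carbon genes they were 0.32 for MTD1 and 0.19 for GCV1 (limma, unadjusted p = 0.294 and 0.660). MTD1 was higher in [GAR+] at each number, but its groups overlapped. CHO2 and OPI3, the phospholipid methyltransferase genes and thus large users of S-adenosylmethionine, gave 0.02 and 0.14. GTO1 and GSH1 of glutathione metabolism gave -0.33 and -0.23, and HRT1 and CDC34, whose proteins work with Met30 in ubiquitination, 0.27 and 0.22.

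Of the 8 one-carbon genes, which supply the methyl groups of folate, 6 had both cultures numbered 3 above all other cultures, ADE3 by a narrow margin, which held for 8.84% of all genes. This pattern was noticed in the data and not tested as a group. SHM2, which encodes the cytosolic serine hydroxymethyltransferase, read 321, 436 and 742 in [gar-] and 373, 447 and 777 in [GAR+]. Both cultures numbered 3 were high. It was the 1 gene of the 40 that passed the test for culture number (limma, adjusted p = 0.0457), and its difference between groups was 0.10. The call was lost when 1 of the arrays numbered 1 or 3 was left out, with an adjusted limma p of 0.0828 and 0.215 without [gar-] cultures 1 and 3 and 0.0813 and 0.195 without [GAR+] cultures 1 and 3. It was also lost when arrays were scaled to a common trimmed mean (limma, adjusted p = 0.0541), without between-array normalization (0.912) and without the intensity trend in limma (0.0796). The genes of the glycine cleavage complex had a like profile. GCV1 read 125, 165 and 404 and 197, 166 and 392, GCV2 97.8, 125 and 427 and 176, 94.9 and 343, and GCV3 1566, 1764 and 3299 and 1798, 1278 and 3266. Their level in cultures numbered 3 was 2.33, 2.93 and 2.06 times the mean of the other numbers, and the adjusted p from limma was 0.0517, 0.0668 and 0.0505, just short of the threshold. All 3 passed with a pseudocount of 64, with dim genes filtered out (limma, adjusted p = 0.0304, 0.0377 and 0.0304), and without any 1 of the arrays numbered 1 or 2, but not without either array numbered 3. GCV2, GCV3 and ADE3 were named after their values were seen. MTD1, which encodes a folate dehydrogenase, read 97.7, 119.6 and 213 and 147, 146 and 243, with an adjusted p of 0.106 in the same limma test. SHM2 and the 3 GCV genes thus had their high values at number 3, whereas the widest differences of MET6, MET10 and SAM2 between groups were at number 2.

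**Figure D4:**
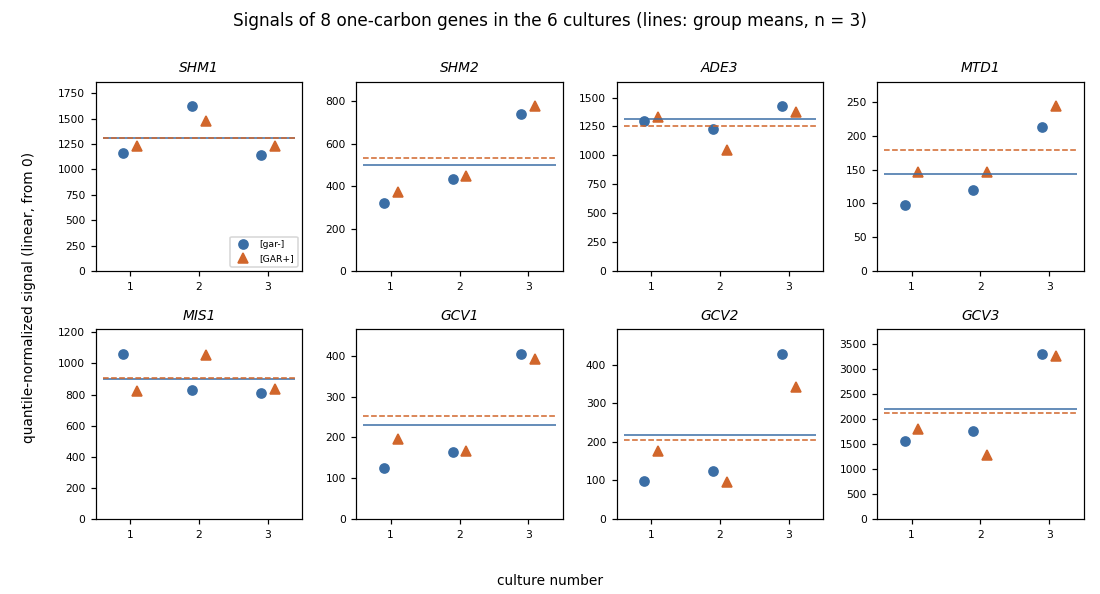
Quantile-normalized signal (vertical axis, linear from 0) of 8 one-carbon genes by culture number, with circles for [gar-], triangles for [GAR+] and lines at the group means (n = 3). For SHM2, ADE3, MTD1, GCV1, GCV2 and GCV3 both symbols at number 3 lie above all others, for GCV3 at 3299 and 3266.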

How the data were processed

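The authors deposited linear signal intensity values, 1 for each probe set on each array, and the submitters' processing notes name MAS5 and GCOS. Versions, scaling target and detection calls were not given in the sources used here. Per the labels' protocols, biotin-labelled cRNA came from 2 µg of poly(A) RNA. Of 9335 probe sets, the platform annotation of 2016 ties 6504 to exactly 1 gene, 328 to several and 2503 to none. All 6504 matched the gene table of assembly R64 and 0 symbols changed. Signals of all probe sets were quantile-normalized, and log2(signal + 16) was fitted with limma 3.58.1 in R 4.3.3 (lmFit, eBayes with intensity trend), [GAR+] against [gar-], two-sided, with Benjamini-Hochberg adjustment over the 6504. For a gene with several probe sets, the brightest on average was used. The fit and the test for culture number were run on simulated data with independent noise on each array. No simulated array was set apart as those numbered 2 are here. Those runs thus do not show how small a difference these data could reveal. Background was the highest of 16 non-yeast control probe sets. With 3 arrays per group the number of arrays limits the precision, and the median standard error over the members was 0.18.

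The groups share culture numbers 1 to 3. After subtracting group means, arrays of the same number correlated at 0.322 to 0.347 over the tested probe sets, and those of different numbers at -0.311 to 0.0751. Subtracting group means by itself pushes the second range down when the first is positive, so the contrast overstates the pairing. On this basis the numbers were treated as pairs in a second fit. The pairing comes from these correlations only. No arrays held identical values. The members and gene lists were chosen with earlier results of these data known. Members given with all 6 values were those whose groups did not overlap, that differed by at least 0.4 or that had 1 sign at all culture numbers. Of the other 40 genes, those were named that passed a test, whose groups did not overlap, or that had the 2 largest differences of their group. GCV2, GCV3, ADE3, MXR1 and SAM4 were added outside this rule, after their values were seen. Alternatives were no or another scaling, pseudocounts of 1 and 64, a filter at a mean signal of 50, no trend, the block, the mean over probe sets, each array left out, and both arrays numbered 2 left out. Promoter motifs were not analysed here.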

Additional observations from a re-analysis of the deposited data

How the results depend on the processing

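No member and none of the other 40 genes passed between [GAR+] and [gar-] in limma under any alternative run, and in each the 1 probe set that passed was that of HXT3. With the culture number as a replicate block 0 members passed and 1 probe set in all, and the block changed no other call. Of the 32 members, 20 kept their sign in every alternative in which they were fitted. Among them were SUL2, MET3, MET16, MET10, STR2, MET6, SAM2, SAH1, MUP1 and MET30. Signal over background limited SUL1 most, and the other 31 members were above the highest non-yeast control on all 6 arrays. SUL2, MET28 and MET32 were dim too, and like SUL1 they fell below the filter at a mean signal of 50. With 3 arrays a group, the sign of small differences is not settled. The cause of the changes below was not tested.

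Without between-array normalization the median of all genes moved to 0.16, and the medians were 0.070 for the members, 0.17 for the other genes, -0.10 for sulfate transport, -0.032 for transsulfuration, 0.24 for methionine synthase and folate, 0.59 for the S-adenosylmethionine cycle and 0.15 for the regulators. There the sign turned for MET1 (0.031), MET17 (0.13), CYS4 (0.0051), SAM3 (0.13), MET32 (0.11), UTR4 (0.016) and GCV3 (0.0088), all below the shift of all genes. Without both arrays numbered 2 it turned for MET8 (-0.15), MET17 (0.047), MET13 (0.10), MET31 (-0.0020) and GCV3 (0.091), and the median of the S-adenosylmethionine cycle was 0.26.

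In the test for culture number, 0 of the other 40 genes and 2 probe sets passed without normalization, 0 of the 40 with trimmed-mean scaling, 4 with a pseudocount of 64, 4 and 100 probe sets with the filter, and 0 and 16 without the trend. Without both arrays numbered 2 there were 1 member, 5 of the 40 and 101 probe sets. With 1 array left out in turn the counts ranged from 0 to 6 members, 0 to 9 of the 40 and 27 to 688 probe sets.

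With 1 array left out in turn, the median of the S-adenosylmethionine cycle ranged from 0.33 to 0.53 and that of the members from -0.14 to 0.0064. The members whose sign turned, with their ranges, were CBF1 (-0.092 to 0.13), CYS4 (-0.17 to 0.025), MET1 (-0.33 to 0.022), MET13 (-0.39 to 0.018), MET17 (-0.12 to 0.059) and MET31 (-0.10 to 0.14). The others were MET32 (-0.097 to 0.086), MET7 (-0.047 to 0.12), MET8 (-0.17 to 0.29), MMP1 (-0.014 to 0.34), SAM3 (-0.30 to 0.21) and SUL1 (-0.064 to 0.16). Of the genes beyond the members they were CHO2 (-0.023 to 0.064), GCV1 (-0.16 to 0.66), GCV2 (-0.40 to 0.64), GCV3 (-0.46 to 0.23), HOM2 (-0.011 to 0.22), OPI3 (-0.015 to 0.27), SAM4 (-0.044 to 0.18) and SHM2 (-0.20 to 0.42).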

Other observations

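In the gene order of assembly R64, 4 pairs of the listed genes are direct neighbours. SAH1 lies beside MXR1, which encodes a methionine sulfoxide reductase. MXR1 read 349, 284 and 374 in [gar-] and 403, 332 and 431 in [GAR+], higher in [GAR+] at each number, with a difference of 0.20 against 0.46 for SAH1, and its groups overlapped. MMP1 lies beside MHT1, the gene of the enzyme that uses S-methylmethionine to make methionine, and they gave 0.19 and 0.16. SAM3 lies beside SAM4, the gene of the corresponding enzyme for S-adenosylmethionine, and they gave -0.03 and 0.06. CYS4 lies beside GTO1, an omega-class glutathione transferase gene, and they gave -0.09 and -0.33. In each pair the neighbours shared a sign except SAM3 and SAM4, and none of these 8 genes passed in limma. How often neighbours share a sign over all genes was not measured. The signs of MMP1, CYS4, SAM3 and SAM4 turned in some fits with 1 array left out.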
